A study of Mus musculus with 195 samples.

Results

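ESC-FCS is a culture of mouse embryonic stem cells kept in medium with serum and LIF, and 33 single cells of it are described here, the ones with a column in the table of genes, out of 48 that were sequenced. The series holds 195 samples in all, most of them single cells, and each ESC-FCS cell is named by the well it was sorted into. The cells belong to the 46C line, which derives from E14tg2a and carries a GFP reporter at Sox1, a gene of the early neural lineage. They were grown on gelatin in GMEM with 10% fetal bovine serum and 10 ng/ml of LIF, and small cells with the DNA content of G0/G1 were sorted, 1 cell per well. The labels name no replicate cultures, so all cells stand for 1 culture of 1 line, and the labels' batch barcodes divide them into a first library batch of 19 cells and a second of 14 cells.

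Values of 3 other groups are set beside those of ESC-FCS. ESC-2i is the same line grown without serum, in LIF at 10 ng/ml with PD0325901 at 1 µM, which blocks MEK, and CHIR99021 at 3 µM, which blocks GSK3 (33 cells). NSC are neural stem cells differentiated from the line and expanded in EGF and bFGF (41 cells). The ESC-FCS control cells were sorted from the same kind of culture and made into separate libraries, of which 42 of 48 cells had at least 1000 molecules. Each of these groups is also 1 culture, so levels are compared between cultures by their values alone.

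Mouse embryonic stem cells in serum and LIF are known as a mixed culture, in which cells pass between a naive state that resembles the preimplantation epiblast and states closer to the postimplantation, primed epiblast. LIF, acting through STAT3, and BMP in the serum, acting through the Id genes, hold the cells in self-renewal, while FGF and ERK signalling pushes them toward priming. Naive cells are known for transcription factors such as Nanog, Esrrb, Klf2, Tfcp2l1 and Zfp42, and primed cells for Fgf5, Otx2, Pou3f1 and the de novo DNA methyltransferases.

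For 4 marker genes of these cells, the sequence at which their molecules were counted is given, since BATSeq counts each transcript once, at its polyadenylation site. Nanog (chr6:122707489-122714633, + strand, GRCm38) encodes a homeobox factor of the naive state. Tdgf1 (chr9:110939603-110946158, - strand) encodes Cripto, the co-receptor of Nodal. Lefty1 (chr1:180935022-180938400, + strand) encodes a secreted inhibitor of Nodal, and Dnmt3l (chr10:78041947-78063622, + strand, a span that overlaps Aire) encodes the cofactor of the de novo DNA methyltransferases. The 30 bases that end at the most used site of each gene, read on the mRNA strand from GRCm38, are shown with the polyadenylation signal AATAAA in capitals where it is present.
Nanog: gtttaaacaaAATAAAacactaattttacc
Tdgf1: atgaatatgcacagtaaaaatgggaactct
Lefty1: tgctagatgtgAATAAAatatgctttgttt
Dnmt3l: tgtgaagtttttcaaatatatcataggatt

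These windows lie at chr6:122714600-122714629, chr9:110939611-110939640, chr1:180938368-180938397 and chr10:78063583-78063612. All 4 sites are in the annotated 3′ UTR, 3 to 8 bases before the end of a transcript. The main site held 66 of the 68 Nanog molecules, all 107 of Lefty1, all 76 of Dnmt3l and 82 of the 114 of Tdgf1, whose molecules were spread over 5 sites. AATAAA and its variant ATTAAA were searched on the mRNA strand only. AATAAA was found in the windows of Nanog and Lefty1, 14 and 13 bases before the site, and neither hexamer was in those of Tdgf1 and Dnmt3l. For comparison, AATAAA occurred in 36.0%, ATTAAA in 10.2% and at least 1 of them in 45.0% of the last 30 bases of 44663 annotated transcripts of protein-coding genes in the table.

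The 33 cells gave 226683 molecules on 14316 genes, with 1079 to 14819 molecules per cell (median 6375) and 751 to 4950 genes per cell (median 2667). Depth was alike in the first batch (median 6375) and in the second (median 5694), but cell H7 of the second batch stood apart with 1079 molecules, and the next lowest cell had 2174. The 15 cells left out had 73 to 1968 molecules. Each molecule was supported by 7.19 to 13.5 reads in a cell. The batches used the same 24 cell barcodes in separate libraries, and 11 of these barcodes belong to kept cells of both. Levels are given as molecules per 10000 molecules on genes, summed over the cells of a group, and exact 95% Poisson intervals around them cover counting error only.

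All 4 markers were measured in the cells. Nanog had 68 molecules in 21 of 33 cells (3.00 per 10000), Tdgf1 114 in 27 cells (5.03), Lefty1 107 in 25 cells (4.72) and Dnmt3l 76 in 21 cells (3.35). None of the 4 had a molecule in the 41 NSC, where 3 molecules would be 0.198 per 10000, although NSC were shallower, with a median of 3282 molecules. In ESC-2i, with a median of 10864 molecules, Nanog was at 4.67, Tdgf1 at 5.24 and Dnmt3l at 0.652 per 10000, and Lefty1 had no molecule, below a limit of 0.0814.

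**Figure D1:**
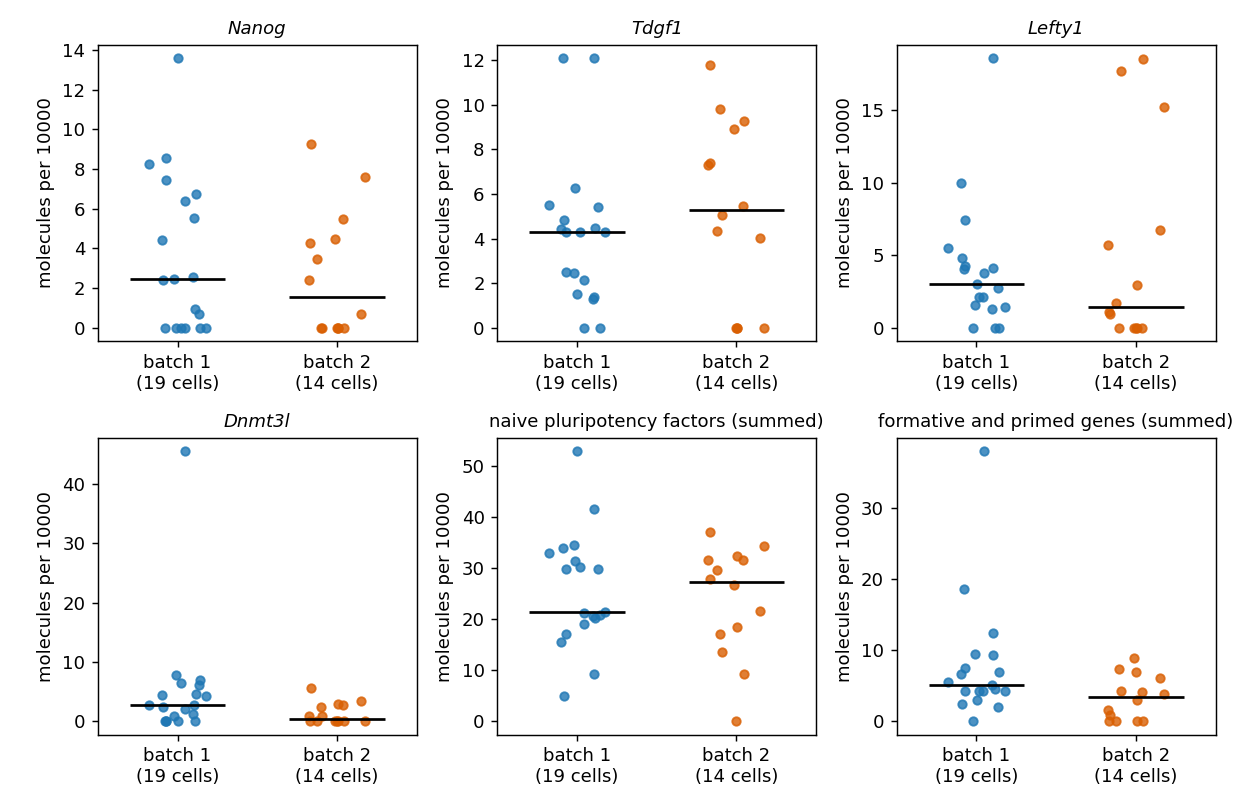
Level of the 4 marker genes and of the summed naive and formative-primed lists in each ESC-FCS cell (molecules per 10000, y axis), by library batch (x axis, 19 and 14 cells). Points are cells and bars are medians, and Dnmt3l and the formative-primed sum each have 1 cell far above the rest, A7, at 45.6 and 38.0 per 10000.

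Per cell, Nanog ran from 0 through a median of 2.43 to 13.6 per 10000, and most cells with the gene had 1 to 4 molecules. The highest counts were 10 molecules in E12 and 9 in C10, and 12 cells, some of them among the deepest, had none. Tdgf1 was more even, from 0 through a median of 4.36 to 12.1 per 10000, with at most 13 molecules in a cell, B9. Lefty1 was more uneven. It reached 21 molecules in H11, 20 in B9, 10 in G10 and 9 in A10, whereas 23 of the cells had 2 or fewer. Dnmt3l had 24 of its 76 molecules in A7, followed by 9 in A12, and 21 cells had at most 1. The median level of Nanog was 2.46 per 10000 in the first batch and 1.55 in the second, that of Tdgf1 4.28 and 5.27, that of Lefty1 3.02 and 1.41, and that of Dnmt3l 2.75 and 0.406, with overlapping ranges for each gene.

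Genes of protein synthesis and folding were among the most abundant in the culture. Ribosomal protein genes held 1976 per 10000 molecules and were led by Rpl13 with 3094 molecules, Rpsa with 2336 and Rps20 with 2136. Outside the ribosomal proteins and the mitochondrial genome, the most abundant genes were Rack1, a ribosomal scaffold protein, with 1471 molecules, the nucleolar Npm1 with 1352, the chaperones Hsp90aa1 with 974 and Hsp90ab1 with 889, the cytokine Mif with 859, the elongation factor Eef1a1 with 790, the peroxiredoxin Prdx1 with 768 and the elongation factor Eef1b2 with 760. The 15 most abundant genes also included Gm10036 (1141 molecules), Rps13-ps1 (726) and Gm26917 (616). Snord72 (993) belongs to the 15 as well, but its annotated span overlaps Rpl37, and how molecules were divided between such genes was not tested. The authors removed reads that aligned to several places, which touches genes with near-identical copies, and Pou5f1, which encodes Oct4 and has such copies, had 4 molecules in 3 cells. Whether these genes are undercounted was not tested.

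Naive pluripotency factors were present in 32 of the 33 cells. Their 15 genes held 571 molecules, or 25.2 per 10000 (interval 23.2 to 27.3), against 37.7 in ESC-2i, 0.724 in NSC and 37.8 in the control cells. The nuclear receptor Esrrb led with 141 molecules in 30 cells, followed by the Krüppel-like factor Klf2 with 95 in 29, Nanog with 68 in 21 and Tfcp2l1 with 62 in 21. Fbxo15 had 39 molecules, Klf5 35, Zfp42 (Rex1) 26, Nr0b1 (Dax1) 25 and Tcl1 22. The other 6 genes, Dppa3, Tet2, Nr5a2, Prdm14, Tbx3 and Klf4, had 17 or fewer each. Set beside ESC-2i, Tfcp2l1 was at 2.74 against 8.63 per 10000 and Tbx3 at 0.309 against 1.58, whereas Klf2 was at 4.19 against 4.29 and Klf5 at 1.54 against 1.71.

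Core pluripotency factors were at 43.8 per 10000, against 37.9 in ESC-2i and 6.78 in NSC. Trim28, a co-repressor that many cell types use, held 303 molecules in 32 cells and most of the NSC value, with 85 molecules there. Utf1, a chromatin protein of undifferentiated stem cells, had 166 molecules in 29 cells (7.32 per 10000, against 1.30 in ESC-2i). Tdh, the threonine dehydrogenase on which mouse embryonic stem cells depend, had 160 in 27 cells (7.06, against 14.6). Sall4 had 94 molecules, L1td1 68, Dppa4 53, Sox2 52 and Dppa2 31. The RNA-binding protein Lin28a had 59 (2.60, against 0.299 in ESC-2i). Dppa5a, which like Pou5f1 has processed copies, had 4. In single cells Utf1 reached 19 molecules in B12 and Tdh 24 in H12, and each was at 0 in several cells.

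Formative and primed genes were at 5.73 per 10000 (interval 4.79 to 6.81), against 1.44 (1.08 to 1.88) in ESC-2i, 2.82 in the control cells and 5.60 in NSC, where Sall2 and Sox3, which neural cells also use, held 30 and 26 of 85 molecules. Most of the 130 molecules in ESC-FCS came from 3 of the 12 genes. The de novo methyltransferase Dnmt3b had 49 molecules in 21 cells, the kinase Pim2 28 in 9 cells and the methyltransferase Dnmt3a 27 in 14 cells. The classical marks of priming were close to absent, with 8 molecules of Pou3f1 in 3 cells, 4 of Otx2 in 4 cells and 2 of Fgf5, both in B12. Lef1, Zic2, Sox3, Cdh2, Sall2 and Fgf15 had 1 to 4 molecules each.

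DNA methylation genes were at 12.9 per 10000, against 9.47 in ESC-2i, and the members differed in direction. The de novo arm was higher in ESC-FCS, with Dnmt3l at 3.35 against 0.652, Dnmt3b at 2.16 against 0.570 and Dnmt3a at 1.19 against 0.109 per 10000. The maintenance methyltransferase Dnmt1 was at 2.12 against 1.68. Uhrf1, which guides Dnmt1 to DNA after replication, was at 1.54 against 4.23, and the oxygenase Tet1 was at 1.90 against 1.44.

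In the Nodal pathway, the inhibitors and the co-receptor were the main members measured. Lefty1 was at 4.72 and Lefty2, its neighbour and paralog, at 0.662 per 10000 (15 molecules in 7 cells), and neither had a molecule in ESC-2i or NSC. Tdgf1 was at 5.03. The ligand Nodal had 11 molecules in 9 cells, 0.485 against 1.44 per 10000 in ESC-2i. The transcription factor Foxh1 had 10 molecules, Smad2 13, and the receptors Acvr2b and Acvr1b 6 and 4. Smad3, Smad7, Furin and Pcsk6 had 2 to 5 each.

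Markers of other cell types were at or near 0. Of the neural list, Fabp7 had 1 molecule, Olig2 0, Nes 2, Olig1 2 and Pax6 4, and the list was at 0.441 per 10000, against 39.4 in NSC. Mesendoderm genes had 2 molecules in all, 1 of them of T. Of the 7 primitive endoderm genes analysed, Gata4 had 1 molecule and Pdgfra 0, while the basement membrane genes Sparc and Lama1 had 12 and 6 and Dab2 5. The trophectoderm list held 15 molecules, 9 of them of Tfap2c. Fibroblast collagens Col1a1, Col1a2 and Col3a1 were at 0, and the 76 molecules of that list were all of Fn1, fibronectin, which was also at 4.91 per 10000 in ESC-2i. The 2 genes of the two-cell-like list that were analysed had no molecule.

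Id genes, the targets of BMP, were higher than in the serum-free ESC-2i medium. Id3 had 47 molecules in 18 cells (2.07 per 10000, against 0.516 in ESC-2i), Id2 18 in 11 cells (0.794, against 0.0543) and Id1 17 in 9 cells (0.750, against 0.0271). C9 held 14 of the Id3 molecules and 4 of the Id1 molecules, and E12 held 9 of Id3. Stat3, Il6st, Lifr and Socs3 had 5 to 12 molecules each. Among genes that respond to ERK, the feedback inhibitors Spry4 and Dusp6 had 13 and 9 molecules (0.573 and 0.397 per 10000), against 1 and 0 in ESC-2i, where MEK is inhibited. Etv5, also downstream of FGF, did not follow them, with 3.26 against 4.04 per 10000. Egr1, Fos, Jun and Myc had 0 to 4 molecules.

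The cells were sorted for G0/G1 DNA content, and each of them had molecules of the S phase list and of the G2 and M phase list. S phase genes were at 45.0 per 10000 (13.8 to 78.8 per cell), led by the helicase subunit Mcm2 with 159 molecules and the reductase Rrm2 with 119. G2 and M phase genes were at 24.0 (1.90 to 62.9 per cell), led by Ube2c with 79 and Cdc20 with 73, against 14.6 in ESC-2i and 5.73 in NSC. Of single cells, the interval of the G2 and M sum lay above the pooled level in C8, D10 and G10 and below it in A7, A9, B9 and H12.

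Metal-binding proteins differed widely between single cells. The metallothioneins Mt1 and Mt2, which bind zinc and copper, had 405 and 270 molecules. Mt1 ran from 0 molecules in A7 and H10 to 51 in B9 and 60 in D10. With the ferritins Fth1 and Ftl1, the list was at 43.9 per 10000 (2.75 to 122 per cell), against 111 in ESC-2i and 34.7 in the control cells. Of single cells, 8 had an interval above the pooled level and 10 below it, the most among 9 lists examined in this way. Intervals narrow as a list holds more molecules, so this number does not rank the lists by unevenness. Glycolysis genes were at 78.0 per 10000, against 110 in the control cells, and were led by Pkm with 489 molecules. Amino acid stress genes were at 15.3, against 26.8 in ESC-2i and 19.5 in the control cells. Asns, asparagine synthetase, was at 3.31 in ESC-FCS against 16.5 in ESC-2i. Heat shock genes were at 122 per 10000, most of it Hsp90aa1 and Hsp90ab1. The mitochondrial genome held 195 per 10000, from 52.2 in B11 to 449 in A10, against 172 in ESC-2i, 509 in NSC and 115 in the control cells.

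Imprinted genes were at 9.97 per 10000 (interval 8.71 to 11.4), against 2.88 (2.36 to 3.48) in ESC-2i. The retroelement-derived Peg10 had 71 molecules in 18 cells, with 12 in B9 and 9 each in E10 and H11, and the other 15 cells had none. The growth inhibitor Cdkn1c had 32, the noncoding Meg3 32 and Phlda2 28. Phlda2 was at 1.24 against 0.0271 per 10000 in ESC-2i and Cdkn1c at 1.41 against 0.0814, but Meg3 was at 1.41 against 1.55. Of single cells, B9, G8 and H11 had intervals above the pooled level and A9 and C10 below it.

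**Figure D2:**
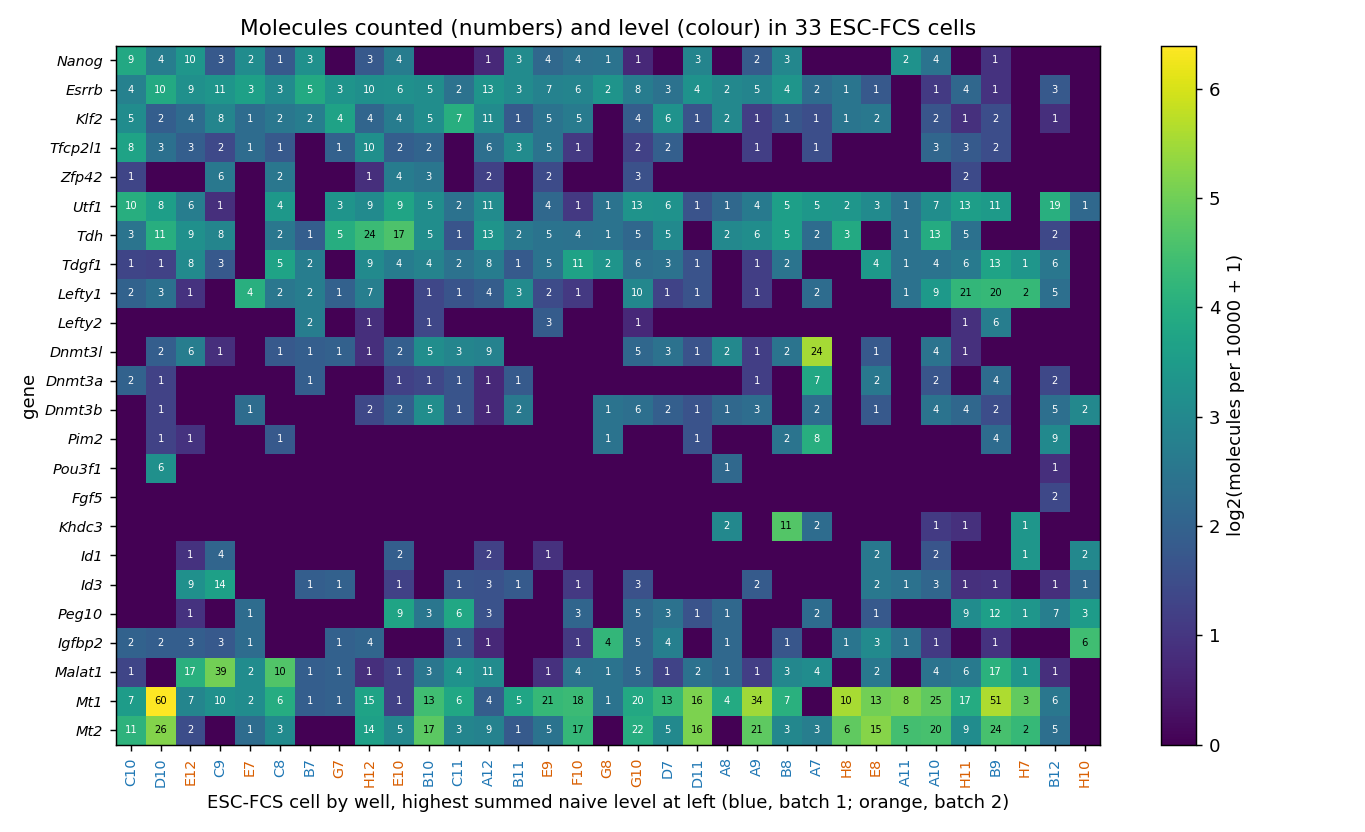
Molecules counted (numbers) and level (colour, log2 of molecules per 10000 plus 1) of pluripotency, signalling and other named genes (rows) in the 33 ESC-FCS cells (columns), ordered by the summed naive level, highest at left, with well names in blue for the first batch and orange for the second. Nanog, itself part of the sum that orders the cells, is empty in most cells at the right. Dnmt3l and Dnmt3a are highest in A7 (24 and 7 molecules), and Lefty1 is highest in H11 and B9 (21 and 20).

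The summed naive level of single cells spread from 0 to 52.8 per 10000, with a median of 26.7. At the upper end were C10 (35 molecules, 52.8 per 10000), D10 (41.4) and E12 (36.9), whose intervals lay above the pooled level. C10 had 9 molecules of Nanog and 8 of Tfcp2l1, and E12 had 10 of Nanog and 9 of Esrrb. At the lower end were H10 with no naive molecule among 2905, where 3 molecules would be 10.3 per 10000, B12 (6 molecules, 4.83), B9 (9.29) and H11 (13.5), whose intervals lay below it. These 4 were not alike. B12 had 23 formative and primed molecules, the most of any cell, with 9 of Pim2, 5 of Dnmt3b and both Fgf5 molecules. B9 and H11 were the pair of cells with most Lefty1 molecules (18.6 and 17.7 per 10000, beside 18.5 from 2 molecules in H7), and B9 also held 6 of the 15 Lefty2 molecules. H10 had 6 molecules of Igfbp2, which encodes a binding protein of insulin-like growth factors, and 406 per 10000 from the mitochondrial genome. It also had 372 molecules of ERCC spike-in transcripts beside its 2905 molecules on genes. The medians of the 33 cells were 272 and 6375.

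Primed level spread from 0 in 5 cells through a median of 4.28 to 38.0 per 10000. The intervals of A7 and B12 lay above the pooled level and those of C9, E9, E12 and F10 below it. A7 had 20 formative and primed molecules among 5268, of which 8 were of Pim2, 7 of Dnmt3a and 2 of Dnmt3b, beside 24 of Dnmt3l. Its DNA methylation genes were at 81.6 per 10000, and the next highest cell was at 24.4. Nanog and Mt1 were at 0 in A7, but its naive level of 19.0 did not lie below the pooled level by its interval. D10 was high in the naive level and also had 6 of the 8 Pou3f1 molecules, with a primed level of 12.4.

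Cells with more naive molecules tended to have fewer formative and primed ones, weakly. Across the 33 cells, Spearman's rho between the summed levels was -0.311 and Pearson's r -0.247. Within batches rho was -0.425 in the first (19 cells) and -0.247 in the second (14 cells), and r was -0.326 and -0.267. Without the 2 cells farthest from the median naive level, C10 and H10, rho was -0.266 and r -0.256, and without A7 rho was -0.291. Cells share depth and libraries, so these values are descriptions. With each cell thinned to 1000 molecules rho was -0.063, and with the 26 cells of at least 3000 molecules thinned to 3000 it was -0.502. Depth itself had a rho of 0.126 with the naive and -0.081 with the primed level.

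**Figure D3:**
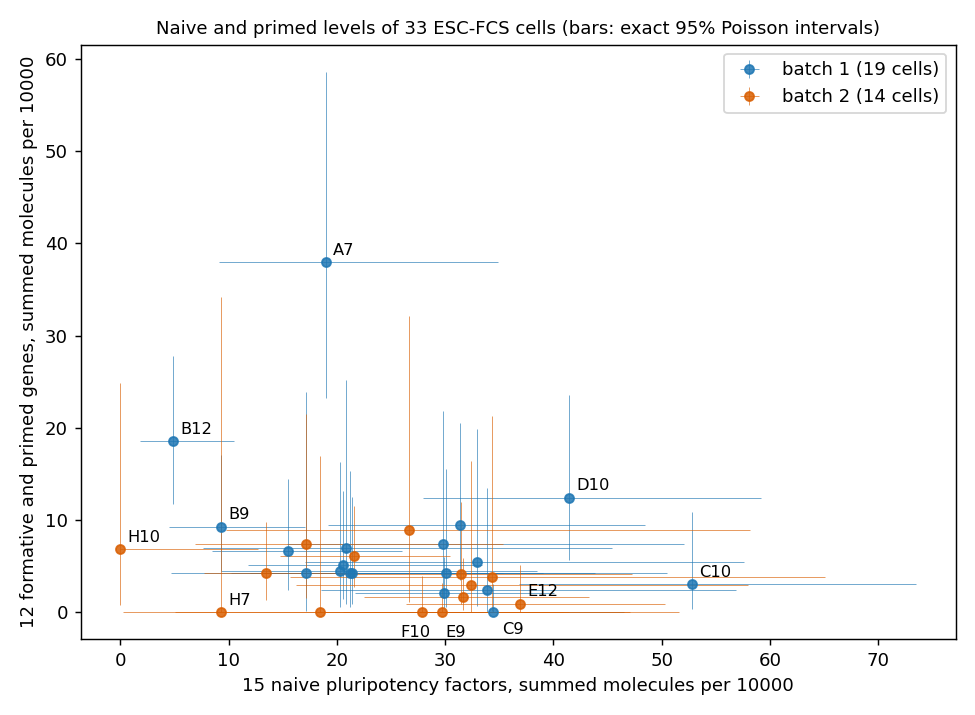
Summed level of 15 naive factors (x axis) against that of 12 formative and primed genes (y axis), both in molecules per 10000, for each ESC-FCS cell, with exact 95% Poisson intervals as bars and the batches in blue and orange. A7 (38.0) and B12 (18.5) are highest on the y axis, C10 (52.8) on the x axis, and most other cells overlap in their intervals.

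Other lists had correlations of a similar size, among 231 pairs of lists and depth that were compared. The core factors had a rho of 0.400 with the naive level (r 0.336, and rho 0.465 and 0.262 within the batches, or 0.305 without C10 and H10). The imprinted genes had a rho of -0.390 with it (r -0.379, and rho -0.463 and -0.393 within the batches, or -0.308 without the same cells). The formative and primed list had a rho of 0.495 and an r of 0.823 with the DNA methylation list, with which it shares Dnmt3a and Dnmt3b, and without A7 and B12 these were 0.522 and 0.470. The mitochondrial share had a rho of -0.310 with the naive level (r -0.238), but rho was 0.0018 in the first batch and -0.723 in the second. S phase genes had a rho of -0.515 with the mitochondrial share (r -0.493, and rho -0.589 and -0.499 within the batches). Amino acid stress genes had one of -0.463 (r -0.336), at -0.744 in the first batch and -0.020 in the second. Among 293 genes that averaged 3 or more molecules per cell and are not on the naive list, those with the largest positive rho with the naive level were the fatty acid binding protein Fabp3 (0.543), Eef1a1 (0.520), the purine synthesis enzyme Paics (0.486), Alg13 (0.456) and the helicase Ddx5 (0.449). The largest negative values were those of Ssr2 (-0.483), the translation inhibitor Eif4ebp1 (-0.433), Hint1 (-0.422), Fth1 (-0.393) and Rtraf (-0.384).

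For single genes, Nanog went with Esrrb (rho 0.471 and r 0.394 over 33 cells, and rho 0.238 and 0.747 within the batches). Nanog and Dnmt3l had a rho of -0.223, with -0.549 in the first batch and 0.088 in the second. Dnmt3l had an r of 0.822 with Dnmt3a and of 0.756 with Pim2, but rho was 0.187 and 0.075. Without A7 and B10, the cells farthest from the median of Dnmt3l, r was 0.00057 and -0.128, so neither relation held without them. A7 had 24, 7 and 8 molecules of Dnmt3l, Dnmt3a and Pim2, and B10 had 5, 1 and 0. Lefty1 had a rho of 0.388 with Lefty2 (r 0.349) and 0.139 with Tdgf1 (r 0.225), and the r values were 0.131 and -0.084 without B9 and H7. Id1 and Id3 had a rho of 0.434 and an r of 0.279.

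Which genes varied between cells beyond technical noise was asked with the test of Brennecke and colleagues. It compares the squared coefficient of variation (CV2) of a gene over the cells, by a chi-square test, with the technical CV2 fitted on ERCC spike-in transcripts plus a margin of 0.25, and calls a gene at a Benjamini-Hochberg adjusted p below 0.1. At a normalized mean above 0.5 molecules, 68 of 2026 genes were called variable (3.36%), and 159 had an unadjusted p below 0.05. Most of the calls rested on few molecules or few cells. Of the 68 genes, 39 had fewer than 30 molecules in all, and 29 were no longer called without H7, the shallowest cell, where 1 molecule weighs most. The count was 47 without H7 and 128 without A7, among numbers of genes tested that are not given here. Only 7 genes stayed called when each of the 33 cells was left out in turn, namely mt-Tf, mt-Tl1, Gm26917, Nrf1, Igfbp2, Malat1 and Pim2.

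**Figure D4:**
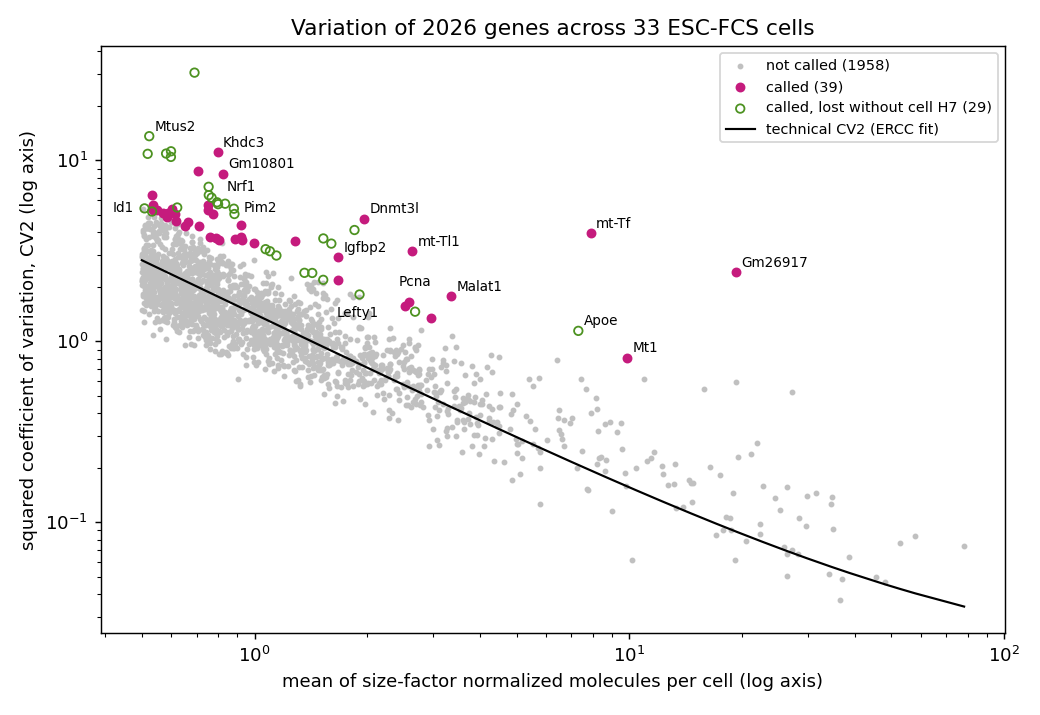
CV2 (y axis, log) against the mean of normalized molecules per cell (x axis, log) for the 2026 genes tested in ESC-FCS. Filled points are the 39 called genes that stay called without H7, open points the 29 that do not, and the line is the technical CV2 from the ERCC fit, with mt-Tf (3.97) and Gm26917 (2.41) far above it among abundant genes.

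None of the naive and core factors tested was among the calls, but with 3.36% of all genes called, a count of 0 among so few genes does not set them apart. With the same kind of test, the authors found that Nanog and Zfp42 (Rex1) appeared variable in ESC-FCS, and neither was called here. Why these results differ was not tested. The authors also gave Lefty1 and Dnmt3l as examples of still higher variability in ESC-FCS, and both were called here on the same data. Of the 8 naive factors with enough molecules, 0 were called by the chi-square test, 1 (Nr0b1) had an unadjusted p below 0.05, and 0 were called with Poisson noise in place of the ERCC fit. Of the 9 core factors, 0 were called, 0 had an unadjusted p below 0.05 and 0 were called with Poisson noise. Other lists gave 1 gene each, 1 of 3 formative and primed genes (Pim2), 1 of 6 DNA methylation genes (Dnmt3l), 1 of 2 Nodal pathway genes (Lefty1), 1 of 2 LIF and BMP genes (Id1), 1 of 14 S phase genes (Pcna), 1 of 10 G2 and M genes (Nusap1), 1 of 4 metallothioneins and ferritins (Mt1), 1 of 4 imprinted genes (Phlda2) and 1 of 75 ribosomal protein genes (Rpl39l). Glycolysis gave 2 of 11 (Pfkp and the glucose transporter Slc2a1) and the mitochondrial genome 4 of 12. ERK response genes (0 of 2), Fn1 and heat shock genes (0 of 9) gave no call, no unadjusted p below 0.05 and none with Poisson noise, and the 6 amino acid stress genes gave 0, 2 (Sesn2 and Slc3a2) and 1. Genes of the primitive endoderm, trophectoderm, mesendoderm, neural and two-cell-like lists were below the limit on the mean.

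Among the called genes with a role in pluripotency, Dnmt3l had the highest ratio of variation to noise. Its CV2 of 4.76 stood beside 0.728 for technical noise at that mean (adjusted p = 1.05e-15, chi-square test on 33 cells). It was not called without A7 or in the second batch alone, and it was also called in the control cells. Pim2 had 9 molecules in B12, 8 in A7, 4 in B9, 2 in B8, 1 in each of 5 cells and 0 in 24 cells (CV2 5.30, beside 1.87 for technical noise, adjusted p = 3.43e-04, chi-square test). Lefty1 was close to the threshold (adjusted p = 0.0551, chi-square test) and was not called without B9, C9, E10 or F10, in the first batch alone, with a margin of 0.5 or in all 35 cells of at least 1000 molecules. Id1 was closer still (adjusted p = 0.0965, chi-square test), and its call was lost without any 1 of 24 cells, with a margin of 0.5, with sizes taken from total molecules and in the second batch alone. Khdc3, a maternal protein of the oocyte and early embryo, had 11 of its 18 molecules in B8 (adjusted p = 2.69e-19, chi-square test) and was not called without that cell.

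Malat1, Igfbp2, Nrf1 and Gm26917 were called whichever cell was left out, but Malat1 was not called in the second batch alone and Igfbp2 not in the first. Nrf1 was called in neither batch alone. With 3 molecules in the first batch, it was below the limit on the mean and not tested there. Igfbp2, at 1.38 per 10000 in the first batch and 3.01 in the second, was also not called with both batches scaled to equal gene means. Malat1, a nuclear noncoding RNA, had 145 molecules in 28 cells, of which 39 were in C9 and 17 each in B9 and E12 (adjusted p = 1.32e-04, chi-square test). Igfbp2 had 47 molecules in 21 cells, with at most 6 in a cell, H10 (adjusted p = 7.81e-05, chi-square test). Nrf1, a transcription factor of respiratory genes, had 15 molecules in 11 cells (adjusted p = 6.65e-05, chi-square test). Gm26917 was measured in every cell, with 616 molecules and 79 of them in C10 (adjusted p = 2.38e-28, chi-square test). Other calls rested on 1 cell. Gm10801 had 26 of its 37 molecules in C9 and was lost without that cell. Mt1 (adjusted p = 0.0317, chi-square test) was lost without D10 and Pcna (adjusted p = 0.0233, chi-square test) without G8, and Apoe, with 283 molecules in all 33 cells, was lost without H7. These 3 were also not called with a margin of 0.5 in place of 0.25. Mt1 was lost as well in the second batch alone and with both batches scaled to equal gene means, Pcna in the first batch alone and with sizes taken from total molecules, and Apoe in either batch alone.

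On the mitochondrial genome, mt-Tf, the gene of a transfer RNA, had 416 molecules (CV2 3.97, beside 0.193 for technical noise, adjusted p = 1.40e-39, chi-square test). It had 83 molecules in H11, 73 in C10, 62 in B9, 57 in A12, 54 in C9, 30 in G10 and 23 in B10. Every other cell had 8 or fewer and 17 cells had none. The 7 high cells came from both batches and had 6375 to 14819 molecules. In the 42 control cells mt-Tf had 2 molecules, against 257 in ESC-2i and 181 in NSC. Snord72 and Snora68, with 993 and 980 molecules in ESC-FCS, had 0 in the control cells, and Rps13-ps1 had 32 against 726. Whether molecules were assigned to genes in the same way in both sets was not tested. mt-Tl1 had 44 of its 108 molecules in A10.

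Of the other called genes among the 30 with the smallest p, most owed their call to H7. C430014B12Rik had 5 molecules, 4 of them in H7, and had the smallest adjusted p of all, 4.84e-68 (chi-square test). Mtus2, Sema3e, Nsmce1, Mrpl52, Eif2b3, Nusap1, Dnajc19, Prdx4, Gm13464, Higd2a, Cdc37, Kif22, Fbln1, Zfp428 and the gene listed as ENSMUSG00000095832 were all lost without H7. Ap3b2 had 11 of 14 molecules in D10 and Desi1 7 of 21 in G7. Ap3b2 was lost without D10, G8 or H7 and Desi1 without G7, while Slc2a1, with 38 molecules in 19 cells, was lost without G8.

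The control cells, none of which is among the 33, gave 104 calls among 1690 genes tested (6.15%), with 174 at an unadjusted p below 0.05. Of the 68 genes called in ESC-FCS, 30 could be tested there and 9 were called, namely Dnmt3l, Igfbp2, Malat1, Gm26917, Phlda2, Camk1d, Trp53inp1, Akap12 and mt-Rnr2. These are 13.2% of all calls in ESC-FCS and 8.65% of all calls in the control cells. Both shares include calls that could not be tested in the other set. Of the 104 genes called in the control cells, 71 could be tested in ESC-FCS. Dnmt3l had 53 molecules in 24 control cells (2.38 per 10000, adjusted p = 6.34e-05 by the chi-square test), Malat1 66 in 22 (adjusted p = 2.88e-05, chi-square test) and Igfbp2 49 in 24 (adjusted p = 3.04e-05, chi-square test). Pim2, with 8 molecules in 5 control cells, and Lefty1, with 1.35 per 10000, were below the limit on the mean there.

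Across pairs of genes the cells covaried little. For the 294 genes that averaged 3 or more molecules per cell, the rho of 43071 pairs had a median of 0.020, with 5% of pairs below -0.310 and 5% above 0.351. The 45 pairs of 10 ERCC transcripts, which share technical variation alone, had a median of -0.032 and the corresponding limits of -0.328 and 0.339. The 1176 pairs of ribosomal protein genes had a median of 0.017, with 5% below -0.373 and 5% above 0.391, beside 0.037, -0.293 and 0.361 for pairs of genes that are neither ribosomal nor mitochondrial, and no test of the difference was made. Genes of the mitochondrial genome stood higher, with a median of 0.328 over 45 pairs, and 0.507 and 0.204 within the batches.

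Of the 10 pairs with the largest positive rho, 6 were pairs of mitochondrial genes, namely mt-Nd4 with mt-Cytb (0.860), mt-Nd2 with mt-Cytb (0.802), mt-Tg with mt-Nd5 (0.787), mt-Nd1 with mt-Cytb (0.772), mt-Tm with mt-Tg (0.768) and mt-Tm with mt-Nd5 (0.746). Another 3 were pairs of genes whose annotated spans overlap, Rpl37 with Snord72 (0.914), Ncl with Snora75 (0.830) and Nme2 with Gm20390 (0.806). The remaining pair was Mt1 with Mt2, neighbours on chromosome 8 (0.813, and 0.798 and 0.845 within the batches). The 5 largest negative values were those of Rpl13 with Rplp1 (-0.698), Fkbp4 with Vdac2 (-0.661), Rplp0 with Psmb3 (-0.643), Rpl13 with Serf2 (-0.641) and Uba1 with Hspb1 (-0.640). Of these, Rpl13 with Rplp1 was at -0.746 in the first batch and at -0.248 in the second, and Fkbp4 with Vdac2 at -0.696 and -0.616.

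The library batches were alike in most genes. Among 683 genes with at least 50 molecules, 29 differed by more than 2-fold in pooled level (4.25%), 13 higher in the first batch and 16 higher in the second, and the levels had an r of 0.924 across genes on a log10 scale. A batch is 1 library, so no test was made. Among the largest folds were those of Rpl28 (16 against 52 molecules, 4.39-fold higher in the second batch), Ybx1 (64 against 13, 3.64-fold higher in the first) and Mars (21 against 45, 2.89-fold higher in the second). Higher in the first batch were the pluripotency gene Dppa4 (42 against 11, 2.83-fold), Pla2g1b (2.65-fold), Hmgcs1 (2.59-fold), Dnmt3l (59 against 17, 2.57-fold), Jarid2, a subunit of Polycomb complex 2 (63 against 19, 2.45-fold), and Mlf2 (2.41-fold).

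**Figure D5:**
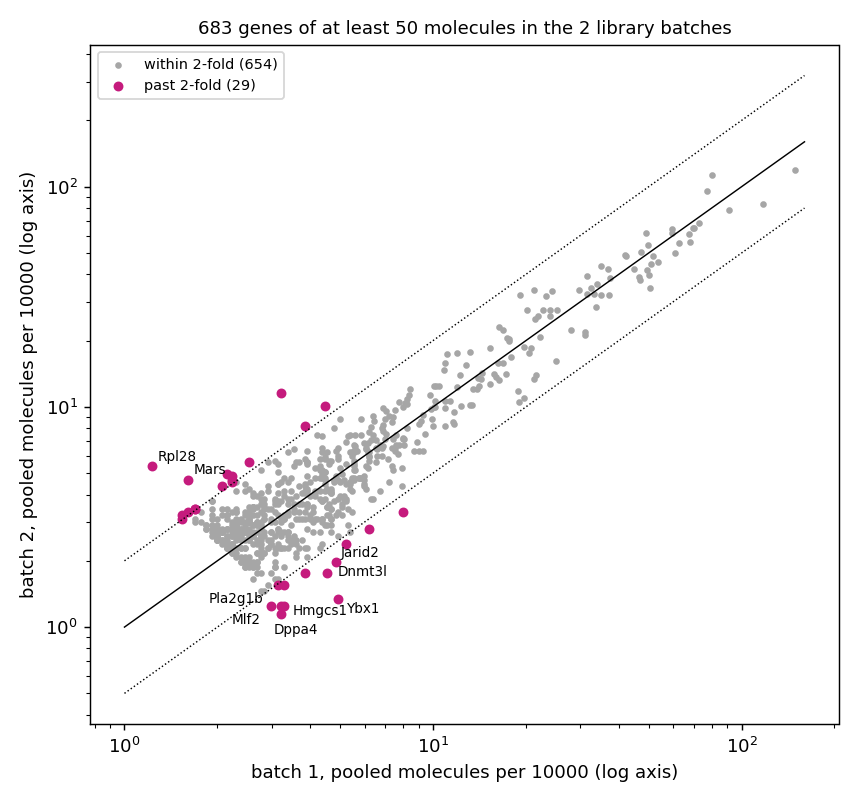
Pooled level of 683 genes in the first (x axis) and second (y axis) library batch of ESC-FCS, in molecules per 10000 on log axes, with the line of equality and dotted lines at 2-fold. The 29 coloured genes lie past 2-fold, with Rpl28 (4.39-fold) and Mars above the lines and Ybx1, Dppa4 and Dnmt3l below.

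Naive factors were nearly even between the batches, at 24.8 (interval 22.2 to 27.7) and 25.7 (22.6 to 29.1) per 10000. Of the 4 with at least 50 molecules, Esrrb, Klf2, Nanog and Tfcp2l1, Klf2 had the largest fold, 1.27. The formative and primed list was at 7.75 (6.32 to 9.42) in the first batch and 3.01 (2.01 to 4.32) in the second. This gap was carried by Pim2 (26 against 2 molecules) and Dnmt3a (24 against 3), of which A7 held 8 and 7 and B12 held 9 and 2. Dnmt3b was nearly even, at 2.30 and 1.97 per 10000. Of the 15 called variable genes with at least 50 molecules, 4 were past 2-fold between the batches. In the first batch alone 76 genes were called variable, 21 of them among the 68, and in the second 60, of which 34 were. The numbers of genes tested in each batch are not given here, so these calls cannot be read as shares. Each batch is also part of the cells that gave the 68 calls, so the overlaps are not agreement between separate sets. The second batch holds H7, without which 29 of the 68 were no longer called. How many of the 34 rest on H7 was not tested.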

How the data were processed

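In BATSeq, the RNA of a sorted cell is reverse transcribed from its poly(A) tail with primers bearing a cell barcode and a random molecular identifier, and the 3′ end is sequenced. As deposited by the authors, the values are counts of identifiers per gene and cell, without normalization, and the same counts per polyadenylation site. The authors aligned reads with GSNAP to GRCm38 and the ERCC sequences and removed reads with several alignments, and their processing notes name HTSeq and R 3.0.2. Mitochondrial genes, which the methods say were removed, are in the table and were kept.

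Levels were pooled over cells and scaled to 10000 molecules on genes, with exact 95% Poisson intervals. For a gene at 0, the limit given is the level of 3 molecules. To call variable genes, the Brennecke test was coded in Python and tested on simulated counts, with median-ratio size factors from 78 genes and a technical fit on 9 ERCC transcripts, read on the sense strand. Cells are the units, so p-values describe variation among these cells and not among cultures. No doublet caller was run, since 1 cell was sorted per well. Cultures and batches were compared without a test, and correlations across cells carry no p.

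Genes named in the text are the 4 markers, the 15 most abundant genes outside ribosomal proteins and the mitochondrial genome, the 30 called genes with the smallest p and called genes of 20 gene lists, list members with at least 20 molecules or as defining markers near 0, the pairs and genes with the largest correlations and the 10 with the largest fold between batches. List members below 20 molecules and other genes were named after their values were seen. The cells, lists and tests were chosen with earlier results of these data known, and 28 genes of the lists were not analysed here. A few genes that meet these rules are not reported here. Alternatives changed the normalization, noise model, limits, batches and cells. Polyadenylation sites were placed on GENCODE M21. Scripts ran in Python 3.11.15 (scipy 1.17.1, numpy 2.4.6, matplotlib 3.10.9, pandas 2.3.3).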

Additional observations from a re-analysis of the deposited data

How the results depend on the processing

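The number of genes called variable, 68, depended on the settings and on single cells. It was 110 with Poisson noise alone, 193 without the CV2 margin, 34 with a margin of 0.5, 22 at a normalized mean above 1, 506 with no limit on the mean, 114 in all 35 cells of at least 1000 molecules, 119 with both batches scaled to equal gene means, and 47 (without H7) to 128 (without A7) when single cells were left out. It was 49 with sizes taken from total molecules, 47 in cells of at least 2000 molecules, which leaves out H7, and 78 with antisense ERCC sites counted, an alternative chosen after seeing the data. In the control cells, the 104 calls became 206 with Poisson noise and 238 in the 38 cells of at least 2000 molecules. The noise model, the margin and the ERCC sites did not change the number of genes tested. The other alternatives can change it, and it is not given for them here, so their counts cannot be read as shares. The naive and primed levels kept a negative rho under each alternative run, with -0.063 at 1000 molecules per cell (r -0.079) and -0.502 at 3000. The upper 5% of gene pairs began at 0.435 in the first batch alone, 0.521 in the second alone and 0.409 for Pearson's r of log2 values. At least 20 in place of 50 molecules gave 242 genes of 2087 past 2-fold between batches. The primed level was 7.75 and 3.01 per 10000 and that of Dnmt3l 4.53 and 1.76 in the batches alone. The cause of these changes was not tested. Another 79 recomputed values of the main results stayed, and none reversed. Counts were taken to stay within 1.5 times and levels inside their Poisson interval. Correlations of lists were taken to stay within their spread when single cells were left out, and those of gene pairs within a small fixed difference. For single named genes and the levels of the other lists, 397 values stayed, 41 calls of genes were lost and 12 levels of lists moved. Alternatives in which a gene fell below the limit on the mean were not counted. Of the 68 called genes, 39 had fewer than 30 molecules. No paired analysis was possible because the cells carry well names and no replicate numbers that pair cultures.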
